A study of Mus musculus with 4 samples.

Results

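*Tead4*, *Tfap2c* and *Esx1* encode transcription factors best known for their work in trophoblast, the lineage that forms the placenta. RNA-sequencing had been performed on 46C mESCs, a mouse embryonic stem cell line, grown for 24 h in medium with serum. The NT group (2 samples) received no treatment, and the Go6983 group (2 samples) received 5 μM Go6983, an inhibitor of the protein kinase C family. The labels do not say whether LIF was present in the medium of these samples or whether the 2 samples of a group came from separate cultures, so that p-values measure the spread between these samples, which may be technical. The 3 genes were chosen by name from the 1577 genes of the deposited table, and all 3 had a value in every sample. The table held only genes that had passed a threshold of change: the mean log2 values of the groups were at least 1.00 apart for every gene. A gene with no row may therefore have been unchanged or absent, and these cannot be told apart.

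The first cell fate decision of the mouse embryo separates the inner cell mass, from which mESCs derive, from the trophectoderm. Tead4 is a TEA domain factor that binds DNA and acts with the coactivators Yap and Taz, which Hippo signaling holds out of the nucleus, and it is required for the trophectoderm to form. Tfap2c, also called AP-2γ, binds DNA as a dimer of the AP-2 family, takes part in trophectoderm and trophoblast stem cell programs and is also used by primordial germ cells. Esx1 is an X-linked paired-like homeodomain protein of extraembryonic tissue and male germ cells, and it is needed for normal growth of the placenta.

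All 3 genes were more highly expressed in the Go6983-treated mESCs than in the NT cells. Expression rose 3.07-fold for *Tead4*, 2.47-fold for *Tfap2c* and 2.46-fold for *Esx1*, and for each gene both treated samples lay above both NT samples. The threshold was an adjusted p below 0.05 in limma, with the Benjamini-Hochberg adjustment over the whole table. Of all 1577 listed genes, 68.8% were called higher and 29.7% lower by the same rule, and the groups did not overlap for 99.7%. Since the table had been selected for change, the 3 of 3 count adds nothing beyond that background. The sizes passed the same selection, which favours large estimates, and the p-values were adjusted over the listed genes only. The intervals and p-values below do not allow for this selection, and they describe these samples only. Rescaling each library to the median of the listed genes, which by construction lowered the median log2 fold change by 1.10, left *Tead4* at 0.50 (limma adjusted p = 0.00949), while *Tfap2c* at 0.18 (0.247) and *Esx1* at 0.19 (0.504) no longer passed. In bulk RNA, more cells expressing a gene and more RNA per cell cannot be told apart.

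*Tead4* (ENSMUSG00000030353) lies on the minus strand of chromosome 6, at chr6:128224288-128300823 in the GENCODE M21 annotation of GRCm38. Its normalized count, the read count divided by a scaling factor of the library, was 404 and 416 in NT cells and 1249 and 1269 with Go6983. The replicates of each group were closer to each other than to any sample of the other group. The group means were 409.8 ± 8.56 (SD, n = 2) and 1259 ± 14.4 (SD, n = 2). The log2 fold change was 1.62 with a standard error of 0.10 and a 95% interval of 1.36 to 1.87 (limma, Benjamini-Hochberg adjusted p = 0.000388). The 4 differences between one treated and one NT sample ran from 1.58 to 1.65 on the log2 scale. The NT replicates differed by 0.04 and the treated replicates by 0.02 on that scale, less than the counting error of such a difference, 0.10 and 0.06. The counts behind these values were 406, 407, 1338 and 1186 reads.

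*Tfap2c* (ENSMUSG00000028640) lies on the plus strand of chromosome 2, at chr2:172549593-172558622. It had normalized counts of 1486 and 1364 in the NT cells and of 3326 and 3708 in the Go6983-treated cells. This was the most abundant of the 3 transcripts in all 4 samples. Its group means were 1425 ± 86.0 and 3517 ± 269.9 (SD, n = 2 each). The log2 fold change was 1.30 with a standard error of 0.11 and a 95% interval of 1.04 to 1.56 (limma, Benjamini-Hochberg adjusted p = 0.000428). Pairs of samples differed by 1.16 to 1.44. Replicates of *Tfap2c* differed by 0.12 in the NT group and 0.16 in the Go6983 group on the log2 scale, above the counting error of 0.05 and 0.03.

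*Esx1* (ENSMUSG00000023443) lies on the minus strand of chromosome X, at chrX:137115397-137122083. It was the least abundant, with normalized counts of 72.6 and 78.7 in NT cells and 191 and 184 in Go6983-treated cells. The lowest treated value was above the highest NT value by more than the distance between any replicates. The means were 75.6 ± 4.30 and 188 ± 5.14 (SD, n = 2 each). The log2 fold change was 1.30 with a standard error of 0.18 and a 95% interval of 0.85 to 1.75 (limma, Benjamini-Hochberg adjusted p = 0.00145), and pairs of samples differed by 1.22 to 1.39. The NT values rested on 73 reads (exact 95% Poisson interval 57.2 to 91.8) and 77 reads (60.8 to 96.2), and the treated values on 205 reads (178 to 235) and 172 reads (147 to 199.7). These intervals cover counting error only, and those of the NT samples did not reach those of the treated samples.

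**Figure D1:**
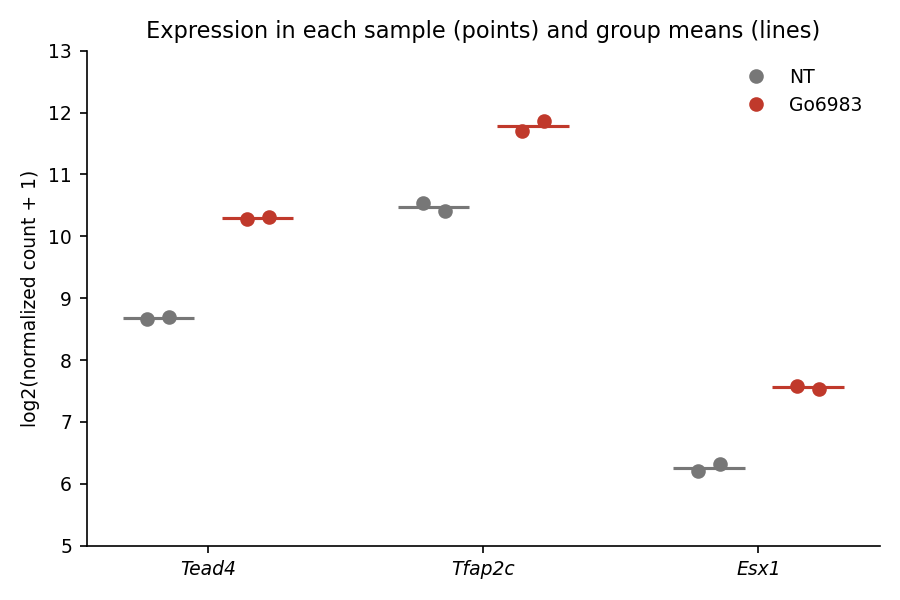
The vertical axis gives log2(normalized count + 1), with each of the 4 samples as a point (NT grey, Go6983 red) and each group mean as a line. For each gene both treated samples sit above both NT samples, with *Tfap2c* highest and *Esx1* lowest in every sample.

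Per kilobase of annotated exon, the order of the levels was *Tfap2c*, *Tead4*, *Esx1* in both groups. The level in NT cells was 387 normalized counts per kb for *Tfap2c*, 114 for *Tead4* and 38.1 for *Esx1*, and in treated cells 956, 350.0 and 94.6. No neighbours in this order overlapped within a group. By mean normalized count, which is not scaled to length, 95% of the listed genes were below *Tfap2c*, 88.5% were below *Tead4* and 65.4% were below *Esx1*. The size of the change did not follow the level: *Tead4*, the intermediate one, had the largest point estimate, ranking 401st of the listed genes from the highest log2 fold change down, while *Tfap2c* and *Esx1* ranked 675th and 676th. Their estimates differed by less than 0.01 on the log2 scale. The median log2 fold change of all listed genes was 1.21, and 1099 of them had a higher mean in the treated cells. The log2 fold change of *Tead4* exceeded that of *Tfap2c* and that of *Esx1* by 0.32 each, and its range over the pairs of samples did not overlap either of theirs. The pairs reuse the same 4 samples, and the 95% intervals from limma did overlap (1.36 to 1.87 for *Tead4*, 1.04 to 1.56 for *Tfap2c* and 0.85 to 1.75 for *Esx1*). An exact two-sided permutation test of the within-sample difference of *Tead4* from *Tfap2c*, and from *Esx1*, gave p = 0.333 in both cases, which is the smallest p that 2 against 2 samples allow.

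**Figure D2:**
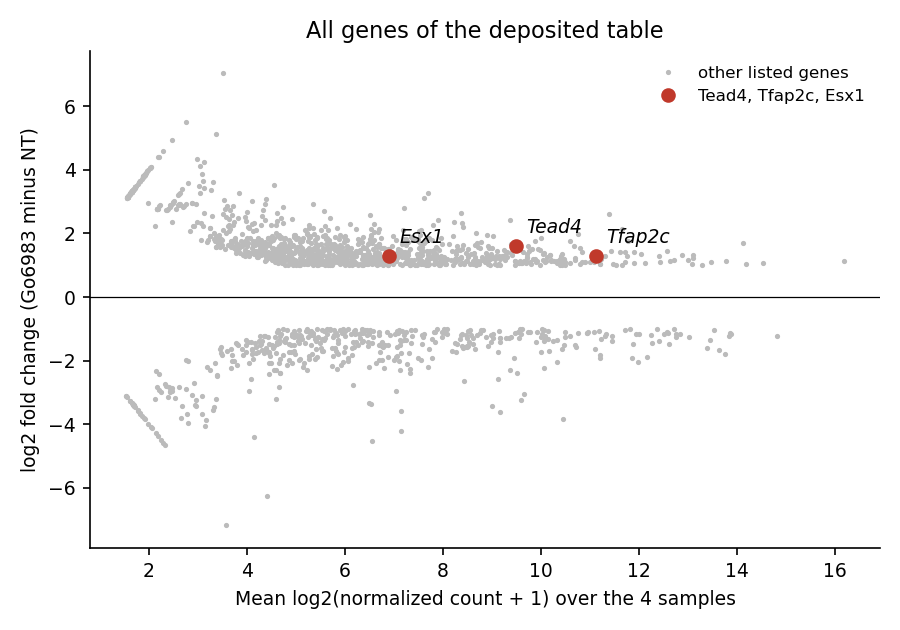
Each point is a listed gene, with its mean log2(normalized count + 1) over the 4 samples on the horizontal axis and its log2 fold change (Go6983 minus NT) on the vertical axis. *Esx1*, *Tead4* and *Tfap2c* (red) lie in this order of level, at log2 fold changes of 1.30, 1.62 and 1.30, within the cloud of the other listed genes (grey), and the gap around 0 comes from the selection of the table.

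The reads of a gene with near-identical relatives can be misassigned, so the sequences of the 3 genes were compared with all other annotated transcripts. None of the 3720 different 50-base words of the *Tfap2c* transcripts and none of the 1979 of *Esx1* occurred in a transcript of another gene. For *Tead4* 10 of 3681 words (0.272%) did, all of them in *Tead3*, another gene of the TEA domain family. They make up 1 stretch of 59 bases, at bases 1689 to 1747 of a *Tead4* transcript of 3076 bases whose coding sequence runs from base 570 to base 1850. It covers parts of 2 exons within chr6:128228472-128228618 (GRCm38, minus strand). Matches with mismatches were not searched. The stretch is shown because it is the only place where annotated transcripts of the 2 genes share 50 bases exactly:
Tead4 stretch shared with Tead3: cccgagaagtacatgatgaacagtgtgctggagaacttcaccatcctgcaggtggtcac
*Tead3* had no row in the table.

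RefSeq promoter sequence (GRCm38.p6) was at hand for *Esx1* and not for *Tead4* or *Tfap2c*. The 250 bases used for *Esx1* (chrX:137120327-137120576, minus strand) lie just before the start that RefSeq gives, which is inside the longer GENCODE span given above. They are shown, 5′ to 3′ with each CpG in capitals, because they held more CpG than most promoters:
Esx1 promoter: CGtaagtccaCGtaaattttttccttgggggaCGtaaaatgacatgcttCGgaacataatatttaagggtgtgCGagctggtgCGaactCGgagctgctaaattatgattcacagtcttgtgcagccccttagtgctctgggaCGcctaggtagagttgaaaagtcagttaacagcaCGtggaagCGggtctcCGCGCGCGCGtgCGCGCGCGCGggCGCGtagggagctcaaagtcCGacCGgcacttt
It held 24 CpG, against a median of 6 over 32841 promoters of the same length, and 88.0% of them had fewer. Of the 24 CpG, 16 were in the 100 bases nearest the start, many of them in 1 closely spaced run. The GC content was 54% against a median of 52.4%, so the difference was in CpG pairs more than in G and C. Searched on both strands, the window held no GCCNNNGGC (an AP-2 type site), which 13.7% of promoters held. It also held no GGAATG (a TEAD type site), TAATTA (a homeodomain core) and no TATAAA (the core bound by TBP), which 12.6%, 4.84% and 12.4% of promoters held. The absence says only that these letters are not in this window.

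The other trophoblast regulators of the table were then described, from a list of 28 annotated genes that also held the 3. Of these, 6 had a row, 5 called higher and 1 lower, beside 68.8% and 29.7% of all listed genes. Apart from the 3 genes themselves, *Elf3* and *Msx2* were higher and *Grhl2* lower. The median log2 fold change of the 6, with the 3 included, was 1.30 against 1.21 for all listed genes. *Elf3*, an ETS factor of epithelia, had normalized counts of 1049 and 1058 in NT cells and 3694 and 2514 in treated cells, a log2 fold change of 1.53 ± 0.19 (SE; limma, Benjamini-Hochberg adjusted p = 0.000917). Its 2 treated values lay far apart, and the lower was still above both NT values. Under the rescaling its log2 fold change was 0.41 (limma adjusted p = 0.179). *Msx2*, a homeobox gene, rose from 152 and 213 to 395 and 385, a log2 fold change of 1.11 ± 0.19 (SE; limma adjusted p = 0.00335) that became -0.0058 under the rescaling. Its limma adjusted p was 0.0810 when Go6983 replicate 1 was left out and 0.0797 when Go6983 replicate 2 was, with log2 fold changes of 1.10 and 1.13. *Grhl2*, a grainyhead factor of epithelial cells, fell from 4854 and 4091 to 1398 and 1156, a log2 fold change of -1.81 ± 0.14 (SE; limma adjusted p = 0.000428). It was more abundant in NT cells than any of the 3 genes. The other 22 members, *Cdx2*, *Eomes*, *Elf5*, *Gata3*, *Hand1*, *Ascl2* and *Gcm1* among them, had no row, and a value for them was not analysed here.

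Hippo signaling and the TEAD family were covered by a list of 31 annotated genes, of which 3 had a row. Of these, 1 was called higher (*Tead4*) and 2 lower, beside 68.8% and 29.7% of all listed genes. *Ccn2*, a secreted matrix protein and a common readout of Yap and TEAD activity, had normalized counts of 2873 and 2978 in NT cells and of 1382 and 1293 in treated cells. Its log2 fold change was -1.13 ± 0.09 (SE; limma, Benjamini-Hochberg adjusted p = 0.000428). *Ajuba*, a LIM protein that can hold the Hippo kinases in check, fell from 13150 and 12432 to 5449 and 5278, a log2 fold change of -1.25 ± 0.09 (SE; limma adjusted p = 0.000389). *Tead4* and these genes moved in opposite directions in both treated samples. *Tead1*, *Tead2*, *Tead3*, *Yap1* and *Wwtr1*, which encodes Taz, had no row. *Tfap2c* was the only one of 5 AP-2 genes with a row, and *Esx1* the only one of 36 X-linked homeobox genes. Of the 52 listed genes of chromosome X, 26 were called higher and 24 lower (68.8% and 29.7% in the whole table), with a median log2 fold change of 1.02, against 1.30 for *Esx1*.

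Of 53 genes of trophoblast stem cells, trophoblast giant cells and the placenta, 4 had a row, 2 called higher and 2 lower (68.8% and 29.7% in the whole table). *Ly6a*, the surface antigen Sca-1, rose from 74.6 and 89.9 to 202 and 252 (log2 fold change 1.45, limma with Benjamini-Hochberg adjusted p = 0.00162, and 0.0504 without Go6983 replicate 2), and its log2 fold change was 0.33 (limma adjusted p = 0.271) under the rescaling. *Slco2a1*, a prostaglandin transporter, rose from 56.7 and 58.2 to 143 and 102 (log2 fold change 1.06, limma adjusted p = 0.0101), with an adjusted p of 0.0503 to 0.0962 when any 1 of the 4 samples was left out and a log2 fold change of -0.053 under the rescaling. *Cdkn1c*, the growth-restraining cell cycle inhibitor p57, fell from 3922 and 3834 to 1462 and 1090 (log2 fold change -1.62, limma adjusted p = 0.000484). *Fgfr2*, the receptor through which FGF4 sustains trophoblast stem cells, fell from 690.2 and 560.0 to 259.5 and 174 (log2 fold change -1.54, limma adjusted p = 0.00177). The summed normalized count of the 4 genes was 4744 and 4542 in NT cells and 2066 and 1617 in treated cells, most of it from *Cdkn1c*. The sum of the 6 regulators was 8018 and 7220 against 10254 and 9217.

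**Figure D3:**
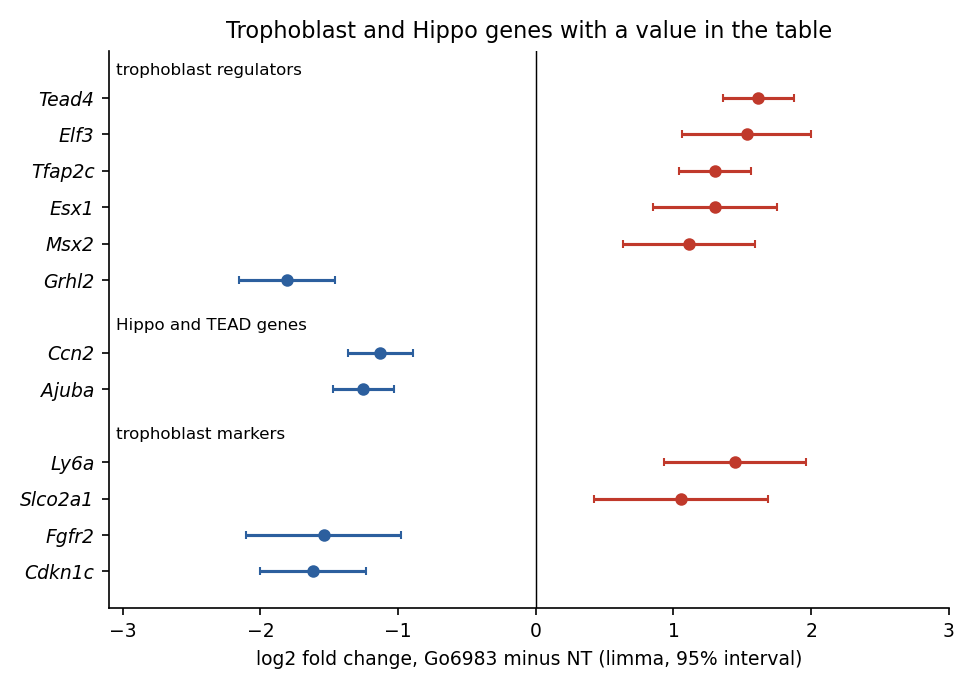
The horizontal axis gives the log2 fold change (Go6983 minus NT) with its 95% interval from limma for each listed gene of the trophoblast and Hippo lists. *Tead4*, *Elf3*, *Tfap2c*, *Esx1*, *Msx2*, *Ly6a* and *Slco2a1* lie above 0 (red) and *Grhl2*, *Ccn2*, *Ajuba*, *Fgfr2* and *Cdkn1c* below it (blue), on the deposited scaling. *Msx2* and *Slco2a1* fell just below 0 when the libraries were rescaled to the listed genes themselves.

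Tfap2c has a further role in the naive pluripotent and primordial germ cell programs. Of 16 genes of these programs 6 had a row, and all 6 were called higher, with a median log2 fold change of 1.10, below the 1.21 of the whole table, in which 68.8% were called higher. Markers of other cell types were counted in the same way. Of 10 mESC markers 4 had a row, 3 called higher and 1 lower, beside 68.8% and 29.7% of the whole table. The lower one, *Utf1*, was the most abundant of the 4 in NT cells, with a mean of 22374 in NT and 10135 in treated cells. The 3 higher ones were also among the 6 genes counted just before. The summed normalized count of the 4 markers was 55513 and 55944 in NT cells and 88977 and 92466 in treated cells. Of 13 primitive endoderm genes none had a row. Of 11 mesendoderm genes 2 had a row and both were called lower, as 29.7% of the table was (summed count 8270.5 and 9555 against 4245 and 3770). Almost all of that sum was *Lefty1*, and the other, *Kdr*, had a mean of 117 in NT and 55.0 in treated cells. Of 8 neural genes 3 had a row, 1 called higher and 2 lower, beside the same 68.8% and 29.7%. Their summed count was 1568 and 1365 against 525 and 427, and most of that sum was *Neurod1*. Of 8 fibroblast genes 2 had a row and both were called higher, as 68.8% of the table was. Their summed count (52273 and 47760 against 109338 and 111903) was almost all *Fn1*, the gene of fibronectin, and the other, *Col1a2*, had a mean of 36.3 in NT and 80.4 in treated cells. No marker with a row was at 0 in any sample, and the part of any change in cell mixture in the rise of the 3 genes was not tested.

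The genome around each gene was examined for other listed genes. Within 100 kb of *Tead4*, 21 other genes are annotated and 4 had a row, and 3 of these were called higher, a share near the 68.8% of the whole table. *9330102E08Rik*, a long intergenic noncoding RNA gene on the same strand 40.5 kb beyond the 3′ end of *Tead4*, had normalized counts of 106 and 83.8 in NT cells and 372 and 308 in treated cells. Its log2 fold change was 1.83 ± 0.20 (SE; limma, Benjamini-Hochberg adjusted p = 0.000619). *Gm18609*, a processed pseudogene on the opposite strand 35.4 kb away, had 42.8 and 23.5 against 138 and 106, a log2 fold change of 1.90 ± 0.36 (SE; limma adjusted p = 0.00472, and 0.108 or 0.0857 when Go6983 replicate 1 or 2 was left out, and 0.162 under the rescaling, with a log2 fold change of 0.80). Of its 50-base words 28.6% were shared with other genes, the overlapping *Gm10010* on the other strand and *Gm18637*, so its reads are uncertain. *Gm44056*, an unverified transcript 57.4 kb away, had 0 and 0 reads in NT cells and 11 and 7 in treated cells, at least 2.94-fold higher in the treated cells against a floor of 3 reads in each NT library. *Nrip2*, a nuclear receptor cofactor gene 98.5 kb away on the 5′ side, had 67.6 and 15.3 against 102 and 91.0. Its log2 fold change of 1.54 did not pass the test (limma adjusted p = 0.0640), and its NT samples were far apart (log2 fold change 2.57 with a limma adjusted p of 0.0150 without NT replicate 1, and 0.50 with 0.121 without NT replicate 2). The other 17 genes of the window, among them *Tulp3*, *Rhno1*, *Foxm1* and *Tspan9*, had no row. No source used here says whether reads were counted by strand.

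**Figure D4:**
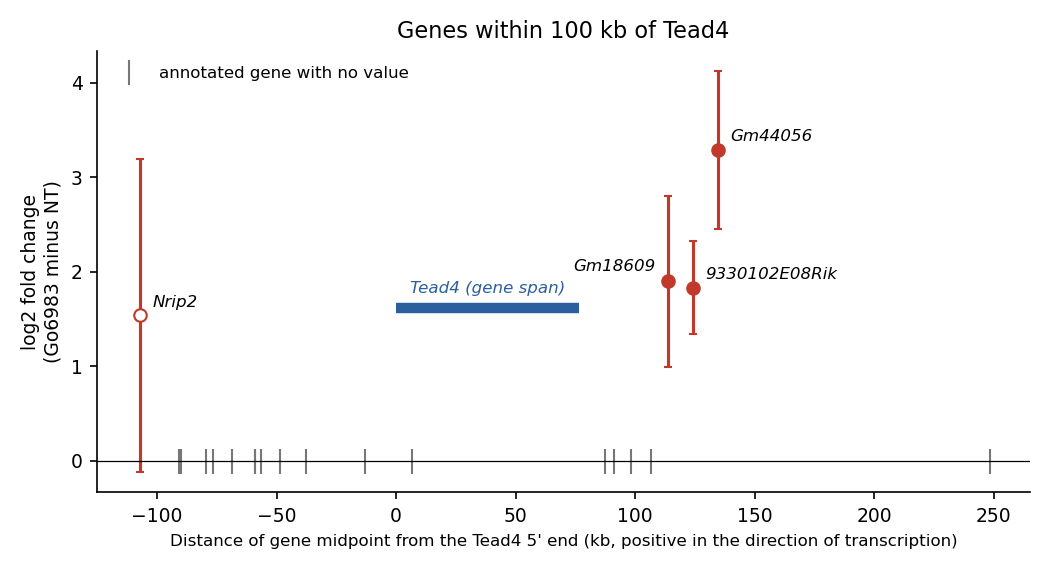
The horizontal axis gives the distance of each gene's midpoint from the *Tead4* 5′ end in kb, positive in the direction in which *Tead4* is transcribed, and the vertical axis the log2 fold change (Go6983 minus NT) with its 95% interval from limma. The 3 called genes (filled points) all lie beyond the 3′ end of *Tead4*, *Nrip2* (open point) did not pass the test, the blue bar marks the span of *Tead4* at its own log2 fold change, ticks mark annotated genes with no value, and the height of *Gm44056*, at 0 in both NT samples, depends on the added constant of 1.

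None of the 4 genes annotated within 100 kb of *Tfap2c* and none of the 14 around *Esx1*, 10 of them processed pseudogenes, had a row. A more distant listed gene beyond the 3′ end of *Tfap2c* was *Bmp7*, a secreted ligand of the BMP family, 309 kb away with 1 annotated gene between them. *Bmp7* had normalized counts of 358 and 388 in NT cells and of 1198 and 1197 in treated cells, a log2 fold change of 1.68 ± 0.11 (SE; limma, Benjamini-Hochberg adjusted p = 0.000388).

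The listed genes most like each of the 3 were sought by the Euclidean distance between log2 profiles over the 4 samples, each centred on its own mean, among the 894 genes whose mean reached 50 normalized counts. With 4 samples in 2 groups this measure mostly reads the size of the change and the order of the replicates. Closest to *Tead4* were *Entpd2*, an enzyme that splits extracellular ATP (distance 0.04), *Bmp7* (0.08) and *Slc15a1*, a peptide transporter (0.10). *Slc15a1* had 502 and 472 normalized counts in NT cells and 1499 and 1486 in treated cells, close to the levels of *Tead4* itself. Closest to *Tfap2c* were *Alpk3* (0.03), *Rasgrp1*, an activator of Ras that binds diacylglycerol (0.06), and *Man2a2*, a mannosidase of the Golgi (0.07). *Alpk3* went from 782 and 701 to 1747 and 1956, with the same sample higher within each group as for *Tfap2c*. Closest to *Esx1* were *Ggt1*, a gamma-glutamyltransferase (0.02), *Chrna5*, a nicotinic receptor subunit (0.05), and *Nccrp1* (0.05). *Ggt1* went from 111 and 119.6 to 288 and 282. Within a distance of 0.25 there were 58 other genes for *Tead4*, 144 for *Tfap2c* and 153 for *Esx1*, so none of these profiles was rare among the listed genes.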

How the data were processed

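RNA-sequencing was analysed from 2 NT and 2 Go6983-treated 46C mESC samples, grouped by their titles. The authors deposited 1 table of log2 values per gene and sample, with group means, fold changes and p-values that were not used. The submitters' processing notes name Bowtie 0.12.2, an aligner that does not place reads across splice junctions of a genome, and mm9. Which read counter, strand setting and annotation were used is not given in the sources used here. With the log2 and an added 1 undone, 100% of values were whole multiples (tolerance 0.05) of 1 step per sample, which gave scaling factors of 0.934 to 1.07 and 859777 to 1054236 reads per sample in listed genes. The total depth is unknown. Gene IDs were matched to GENCODE M21 (GRCm38), 1572 of 1577. The log2 values of all genes entered 1 linear model (limma 3.58.1, R 4.3.3; eBayes with trend, no filter), with Benjamini-Hochberg adjustment and calls below 0.05. The fit had 2 residual and 3.64 prior degrees of freedom. It was tested on simulated data in which most genes were unchanged, which does not check its p-values in a table selected for change. Fold changes are on the log2(value + 1) scale, which understates those of low genes. Folds in the text are 2 raised to the log2 fold change, except the bound for *Gm44056*, which is a ratio of mean normalized counts. Levels per kb divide by the union of annotated exons. Text values are given for the 3 genes, listed members of the trophoblast, Hippo, AP-2 and X-linked homeobox lists (up to 6 a list), listed genes within 100 kb and the 3 genes most like each. *Bmp7* as a distant neighbour, *Fn1*, *Col1a2*, *Lefty1*, *Kdr*, *Neurod1* and *Utf1* were chosen after their values were seen. 1 gene of the list of trophoblast stem cell, giant cell and placenta markers was left out and is not reported here. The genes and lists were chosen with earlier results of these data known. Same-numbered samples did not deviate together (correlation 0.03 over all genes, 0.10 at a mean of at least 50), so the numbers were not used as pairs. Alternatives were another scaling, pseudocounts of 0.1 and 0.01, filters at a mean of 10 and 50, no trend, limma-voom on recovered reads, a replicate block and each replicate left out. Python 3.11.15, pandas 2.3.3, scipy 1.17.1 and matplotlib 3.10.9 were used.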

Additional observations from a re-analysis of the deposited data

How the results depend on the processing

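The table had been selected for change, and the main fit called 68.8% of its genes higher and 29.7% lower, so a kept call was the usual outcome. *Tead4*, *Tfap2c* and *Esx1* kept their direction in all 12 alternatives. In 11 of them the log2 fold changes were 1.60 to 1.64, 1.22 to 1.38 and 1.24 to 1.36, ranges that were set by leaving out each replicate in turn. In the 7 of these 11 that used every sample, the limma adjusted p was at most 0.00576, 0.00691 and 0.00668. The exception was median-ratio scaling of the libraries, which centres a table selected for change and lowered the median log2 fold change by 1.10 by construction: *Tead4* stood at 0.50 (adjusted p = 0.00949), *Tfap2c* at 0.18 (0.247) and *Esx1* at 0.19 (0.504), and *Msx2* (-0.0058) and *Slco2a1* (-0.053) changed sign, while 176 genes were called higher and 476 lower in place of 1085 and 469. Where means had to reach 50 normalized counts, 894 genes were fitted, and 620 were called higher and 273 lower; with replicates left out, 431 to 858 were called higher and 260 to 315 lower. With the replicate block, which gave 1070 and 466 calls, the 3 genes kept their log2 fold changes and had adjusted p of 0.00139, 0.00177 and 0.00528. For the other 22 named genes 235 results kept direction and side of the threshold, 20 lost the call, 5, all of *Nrip2*, gained it and 2 changed sign. Depth limits *Esx1* and the low genes most, and the cause of calls lost with a replicate was not tested.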
